A study of Mus musculus with 7 samples.

Results

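The genes described here are 29 genes of sterol and fatty acid synthesis, measured on arrays of skin from the back of hairless HR-1 male mice, out of 17064 genes measured in all. They were chosen by name: every probe that was not a control and carried 1 of the 29 gene names was read from the 7 scanner files, with Sc4mol given its current name Msmo1. All 29 genes were measured. They comprise 18 enzymes of cholesterol synthesis, 6 genes of sterol sensing and sterol handling (called sterol control here), and 5 genes of the SREBP1 side: Srebf1, Acly, Acss2, Acaca and Fasn. The 4 groups were skin of mice fed an AIN-93G rodent diet with glucosylceramide (GC) after SDS (4 samples), skin of mice fed the same diet without GC after SDS (4 samples), GC-fed skin before SDS (3 samples) and control-fed skin before SDS (3 samples). GC is a glycolipid built from a ceramide and a sugar, and sodium dodecyl sulfate (SDS) is a detergent that was put on the skin at 10%. The mice were 5 weeks old, the skin before SDS was taken after 12 days of diet, and the skin after SDS was taken at 14 days of diet and 2 days of daily SDS. Each two-colour Agilent array held 1 GC-fed and 1 control-fed sample of the same SDS state. The labels call the arrays biological replicates but do not say whether a sample was 1 mouse or pooled RNA, so p-values measure the spread between these samples, which may be technical.

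Cholesterol is made from acetyl-CoA through mevalonate, squalene and lanosterol, and fatty acids are made from the same acetyl-CoA through malonyl-CoA. The transcription factor SREBP2, encoded by Srebf2, drives most genes of the sterol branch when sterols are scarce, while SREBP1, encoded by Srebf1, drives mainly the fatty acid branch. Scap escorts both factors out of the endoplasmic reticulum, and Insig1 and Insig2 hold it back when sterols are plentiful. In the epidermis, cholesterol, fatty acids and ceramides together form the lipid layers of the skin barrier, and in mice both branches are known to respond to damage of that barrier.

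The 250 bases before the gene start were looked up for all members in a RefSeq table of build GRCm38.p6, and 25 of the 29 genes matched, with 33 start sites. Both strands were searched for 4 motifs. The core of the sterol response element, TCACNCCAC, was in 1 of these 33 windows, that of Hmgcs1, and in 1.05% of all 32851 windows. CCAAT was in 66.7% of the members' windows and in 33.8% of all windows, GGGCGG in 75.8% against 32.7%, and CACGTG in 15.2% against 6.02%. None of the motifs contains another, and a match is a description of letters and not of a bound site. The windows of 3 members are printed as examples. Hmgcs1 commits acetoacetyl-CoA to the sterol branch and holds the sterol response element core. Lss was the enzyme with the smallest p for the diet after SDS and for SDS in control-fed skin. Fasn is the fatty acid synthase at the end of the other branch. A link between the motifs and the measured levels was not tested. Capitals mark the sterol response element core and CCAAT on either strand, 5′ to 3′ along the gene's own strand.
Hmgcs1 (chr13:119690101-119690350, plus strand): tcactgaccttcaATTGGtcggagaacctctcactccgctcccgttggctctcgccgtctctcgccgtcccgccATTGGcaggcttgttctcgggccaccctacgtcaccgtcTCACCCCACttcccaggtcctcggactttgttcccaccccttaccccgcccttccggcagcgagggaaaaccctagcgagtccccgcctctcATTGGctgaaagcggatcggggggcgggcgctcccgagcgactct
Lss (chr10:76531355-76531604, plus strand): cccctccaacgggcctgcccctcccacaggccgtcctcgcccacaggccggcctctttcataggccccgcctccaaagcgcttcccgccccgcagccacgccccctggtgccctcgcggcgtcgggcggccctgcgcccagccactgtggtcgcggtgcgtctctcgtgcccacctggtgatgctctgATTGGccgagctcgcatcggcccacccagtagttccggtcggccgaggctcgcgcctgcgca
Fasn (chr11:120824548-120824797, minus strand): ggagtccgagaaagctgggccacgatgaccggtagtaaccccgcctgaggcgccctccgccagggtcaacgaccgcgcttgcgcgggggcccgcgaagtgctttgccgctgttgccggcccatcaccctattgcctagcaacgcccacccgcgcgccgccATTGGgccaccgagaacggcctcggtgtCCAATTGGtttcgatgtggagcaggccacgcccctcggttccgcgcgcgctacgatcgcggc
In the window of Hmgcs1 the core reads TCACCCCAC and starts 137 bases before the gene start. CCAAT or its reverse complement had 3 matches in the window of Hmgcs1, 3 in that of Fasn, of which a pair overlaps on opposite strands, and 1 in that of Lss.

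Each channel of each array gave an intensity, printed here as log2 intensity (the level), and each array gave a diet ratio, the log2 of GC-fed over control-fed. The share of spots that stood well above background ran from 48.5% to 54.5% for green and from 58.2% to 62.8% for red, and the probe used for each of the 29 members was well above background in all 14 channels. Markers of skin were present: 7 of 8 basal and 8 of 9 suprabasal keratinocyte markers and 7 of 8 sebaceous gland markers were measured. The 3 arrays before SDS lay on 1 slide and the 4 arrays after SDS on another, so that SDS and slide cannot be told apart. The skin before SDS was also taken at 12 days of diet and the skin after SDS at 14 days. SDS and time on the diet therefore cannot be told apart either. Both limits hold for every SDS effect and for the after minus before difference. After-SDS array 4 stood apart. Over all genes the correlation of its diet ratios was -0.58 with array 1, -0.62 with array 2 and -0.30 with array 3, which are descriptions across genes, and arrays 3 and 4 carried the same dyes, so the direction of array 4 is not settled by the data. Its labelled direction was kept, and the counts of members called after SDS are also given without array 4 and with its sign turned, which was decided after seeing the data. Of the arrays before SDS, array 1 had a correlation of -0.39 with array 2 and of -0.17 with array 3, and it was the only array of the 3 with the GC-fed sample in Cy3.

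The first comparison asked which of these genes differed between the diets in SDS-treated skin. With all 4 arrays, 0 of the 29 members passed (percent called over all genes 0%, limma fit over 17064 genes), and 4 members were higher and 1 was lower at an unadjusted p under 0.05, against 2.24% and 3.8% of all genes. All 18 sterol enzymes had a fitted diet effect above 0, with a median of 0.29, against 50.9% of all genes above 0. That median was 0.49 without array 4, 0.47 with the sign of array 4 turned, and 0.12 to 0.49 over the fits that leave out 1 array. Each gene was read from its brightest probe, and 20 members had more than 1 kept probe. Among the enzymes, another probe of Fdft1 was below 0 here (-0.05). With the mean of all probes, all 18 enzymes stayed above 0. Without after-SDS array 1, 16 of the 18 were above 0, and without any other single array all 18 were. In bulk skin, fewer cells of a type and less RNA per cell cannot be told apart. The SREBP1 side had 2 of 5 genes above 0 and a median of -0.04, and sterol control had 5 of 6 genes above 0 and a median of 0.20. On arrays 1, 2, 3 and 4 the median diet ratio of the 18 enzymes was 0.88, 0.29, 0.39 and -0.40. Thus 16 of the 18 enzymes were higher in GC-fed skin on arrays 1 to 3 and lower on array 4, a pattern that 13.7% of all genes had, and Acat2 and Mvk were the exceptions. Counting arrays 1 to 3 alone, 20 of the 29 members were above 0 on each, as were 17.4% of all genes, and 0 members were below 0 on all 4 arrays, as were 4.43% of all genes. Without array 4, 8 members were called higher in GC-fed skin (27.6% of members, against 2.91% of all genes) and 0 were called lower (6.01% of all genes). With the sign of array 4 turned, 11 members were called higher, against 4.88% of all genes, and 0 were called lower, against 7.97% of all genes.

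**Figure D1:**
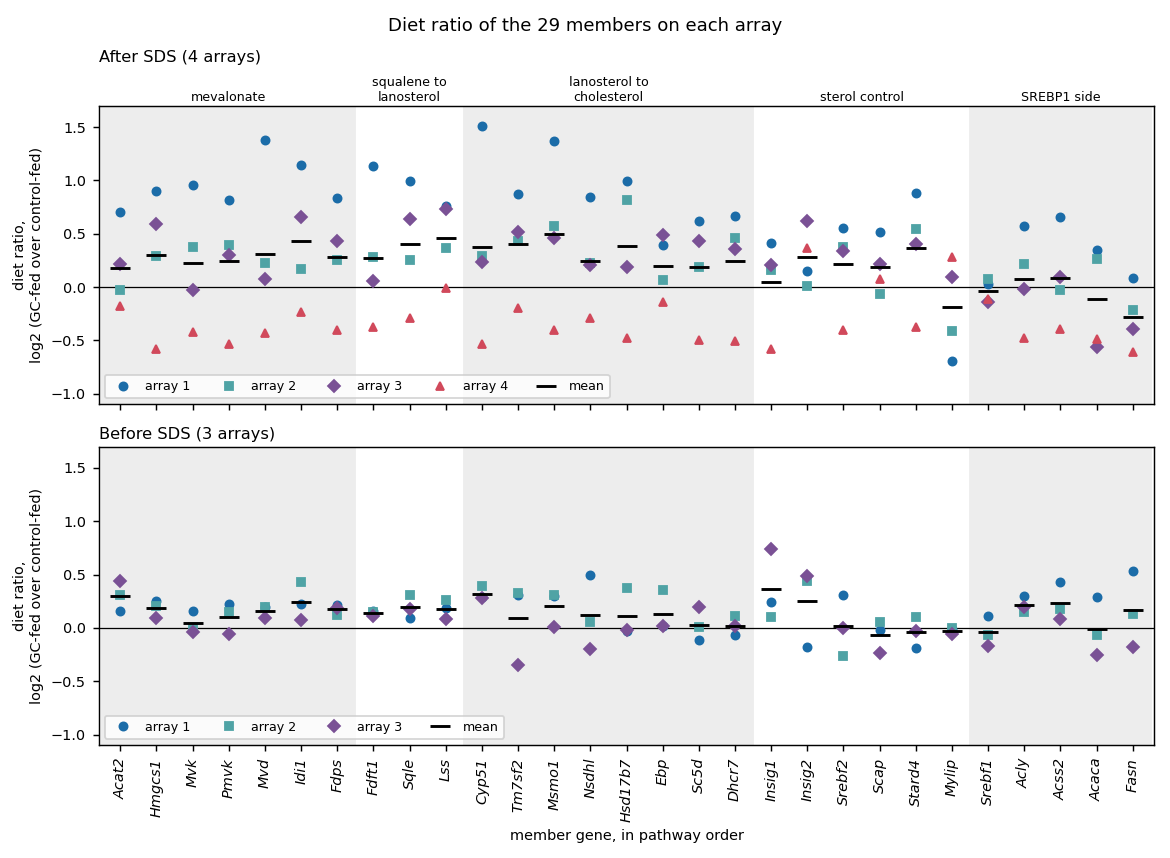
Diet ratio, log2 of GC-fed over control-fed, of each member in pathway order on each array, after SDS (upper panel, 4 arrays) and before SDS (lower panel, 3 arrays); each symbol is 1 array and the black dash is the mean. After SDS the 18 enzymes sit above 0 on nearly all of arrays 1 to 3 and below 0 on array 4, and before SDS the ratios lie closer to 0.

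The 7 mevalonate genes carry acetyl-CoA to farnesyl diphosphate. After SDS their fitted diet effects ran from 0.18 for Acat2, the thiolase that opens the pathway, to 0.43 for Idi1, the isomerase of the isoprene units, and none passed with all 4 arrays. Hmgcs1, the HMG-CoA synthase, had diet ratios of 0.90, 0.29, 0.59 and -0.58 on arrays 1 to 4, a fitted effect of 0.30 ± 0.20 (SE) and an adjusted p of 0.73. It was higher in GC-fed skin on arrays 1 to 3 and lower on array 4. Without array 4, Hmgcs1 (0.58, adjusted p = 0.0354) and Pmvk, the phosphomevalonate kinase (0.46, adjusted p = 0.046), were the mevalonate genes called higher in GC-fed skin.

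Fdft1, Sqle and Lss make squalene, epoxidise it and close it to lanosterol. Lss had diet ratios of 0.76, 0.36, 0.74 and -0.01 after SDS. Its ratio on array 4 was near 0 while all other enzymes but Acat2 and Ebp lay at -0.20 or lower there. The fitted effect of Lss was 0.46 ± 0.13 (SE), a 1.38-fold higher level in GC-fed skin, with an unadjusted p of 0.0104 and an adjusted p of 0.729. Without array 4 it was 0.63 (adjusted p = 0.0176), and Sqle, the epoxidase, was 0.64 (adjusted p = 0.0391). Fdft1, the squalene synthase, was 0.28 ± 0.17 (SE) with all arrays (adjusted p = 0.73).

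The 8 enzymes from lanosterol to cholesterol remove methyl groups and shift or reduce double bonds. Their fitted effects after SDS ran from 0.19 for Sc5d, a sterol desaturase, to 0.50 for Msmo1, a methyl sterol oxidase. Msmo1 had diet ratios of 1.37, 0.58, 0.46 and -0.40, so that array 1 was the highest by far and array 4 lay below 0. Tm7sf2, a sterol reductase, had diet ratios of 0.87, 0.43, 0.52 and -0.20 and a fitted effect of 0.40 ± 0.16 (SE, unadjusted p = 0.0367, adjusted p = 0.729). Cyp51, the lanosterol demethylase, had 1.51, 0.29, 0.24 and -0.53, and its fitted effect of 0.38 ± 0.24 (SE) rested mostly on array 1. Without array 4, Msmo1 (0.75, adjusted p = 0.0367) and Dhcr7, the last reductase of the pathway (0.49, adjusted p = 0.028), were called higher.

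Among the sterol control genes after SDS, Insig2, which retains Scap, was the only member above 0 on all 4 arrays as labelled, as were 3.62% of all genes. With the sign of array 4 turned, Insig2 is below 0 there and 19 other members are above 0 on all 4 arrays, as are 13.7% of all genes. Its diet ratios were 0.15, 0.01, 0.62 and 0.36, so that array 2 showed almost no difference. The fitted effect was 0.28 ± 0.08 (SE, unadjusted p = 0.00872, adjusted p = 0.729). Insig1, whose own gene is an SREBP target, had 0.41, 0.16, 0.20 and -0.58, and its fitted effect was 0.05 ± 0.17 (SE). Srebf2 had 0.55, 0.37, 0.34 and -0.40, the same split as the enzymes, with a fitted effect of 0.22 ± 0.13 (SE, adjusted p = 0.729). Scap had 0.52, -0.07, 0.21 and 0.08, with a fitted effect of 0.19 ± 0.11 (SE, adjusted p = 0.729). Stard4, which carries sterols between membranes, had 0.88, 0.54, 0.40 and -0.37 and a fitted effect of 0.36 ± 0.17 (SE, adjusted p = 0.729), and without array 4 it was called at 0.60 (adjusted p = 0.0277), as was Insig2 at 0.36 (adjusted p = 0.0435). Mylip, a ubiquitin ligase that acts on lipoprotein receptors, had -0.70, -0.41, 0.09 and 0.28, with a fitted effect of -0.18 as labelled, -0.29 without array 4 and -0.25 with the sign of array 4 turned. With that sign turned, Srebf2 (0.35, adjusted p = 0.035) and Stard4 (0.55, adjusted p = 0.0165) were called higher, and Insig2 (0.27, adjusted p = 0.11), Insig1 (0.34, adjusted p = 0.135) and Scap (0.15, adjusted p = 0.486) were not.

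On the SREBP1 side, 2 of 5 genes had a fitted effect above 0 after SDS, and no difference between these genes and the enzymes was tested. Fasn had diet ratios of 0.08, -0.21, -0.39 and -0.61, a fitted effect of -0.28 ± 0.09 (SE) and an unadjusted p of 0.0172 (adjusted p = 0.729). As labelled, it was lower in GC-fed skin on 3 of 4 arrays, with array 4 the lowest. Without array 4 the fitted effect of Fasn was -0.25 (adjusted p = 0.21), and with the sign of array 4 turned it was -0.12 (adjusted p = 0.653), with 2 of 4 arrays below 0. Srebf1 had 0.03, 0.08, -0.14 and -0.12, and its fitted effect of -0.04 had a 95% interval of -0.19 to 0.12. Acaca, the acetyl-CoA carboxylase that makes malonyl-CoA, had 0.35, 0.26, -0.56 and -0.49, so that its arrays split in pairs. Acly, which cleaves citrate to acetyl-CoA, had 0.57, 0.22, -0.02 and -0.48, and Acss2, which makes acetyl-CoA from acetate, had 0.66, -0.03, 0.10 and -0.39. Both were highest on array 1 and lowest on array 4, as the enzyme median was. Their fitted effects were 0.07 ± 0.12 and 0.08 ± 0.13 (SE), with adjusted p-values of 0.882 and 0.875. With the sign of array 4 turned, Acly was at 0.24, Acss2 at 0.21, Acaca at -0.04 and Srebf1 at -0.03, and none of the 5 genes passed with or without array 4.

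Before SDS the question was whether the diet alone changed these genes. Of the 29 members 0 passed (percent called over all genes 0%), and 0 had an unadjusted p under 0.05, against 0.246% of all genes in the higher and 0.352% in the lower direction. All 18 enzymes had a fitted effect above 0, against 47.9% of all genes. Their fitted effects had a median of 0.22 and ran from 0.06 for Sc5d to 0.42 for Cyp51. The fit has a dye term, so that a fitted effect can lie outside the measured ratios. Cyp51 had ratios of 0.29, 0.39 and 0.28, with a mean of 0.32, all below its fitted effect. The dye term of the members had a median size of 0.21, and 0 members were called for it. With no dye term all 18 enzymes stayed above 0. Another probe was below 0 for Fdps (-0.09), Nsdhl (-0.02) and Hmgcs1 (-0.01). With the mean of all probes, all 18 enzymes stayed above 0. The count depended on single arrays: 15 of the 18 were above 0 without before-SDS array 2 and 17 without before-SDS array 3. Without any other single array all 18 were above 0. On arrays 1, 2 and 3 the median diet ratio of the enzymes was 0.19, 0.23 and 0.08. Of the enzymes, 11 were above 0 on all 3 arrays, as were 9.18% of all genes: Acat2, Hmgcs1, Mvd, Idi1, Fdps, Fdft1, Sqle, Lss, Cyp51, Msmo1 and Ebp. The ratio of Msmo1 on array 3 was 0.00357 and those of Ebp on arrays 1 and 3 were 0.02 each, which is close to no difference.

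The 4 members with the smallest p before SDS were Fasn, Acly, Insig1 and Acss2, of which 3 are on the SREBP1 side. Fasn had diet ratios of 0.54, 0.13 and -0.18 before SDS, which spread on both sides of 0, and a fitted effect of 0.25 ± 0.11 (SE, unadjusted p = 0.0562, adjusted p = 1). Acly had 0.30, 0.15 and 0.20, all above 0, and a fitted effect of 0.29 ± 0.14 (SE, adjusted p = 1). Insig1 had 0.24, 0.10 and 0.74, with array 3 far above the others, and a fitted effect of 0.40 ± 0.20 (SE, adjusted p = 1). Acss2 had 0.43, 0.18 and 0.08 and a fitted effect of 0.30 ± 0.15 (SE, adjusted p = 1). Lss had 0.18, 0.26 and 0.09, Acat2 had 0.16, 0.31 and 0.43, and both were higher in GC-fed skin on all 3 arrays. Tm7sf2, at 0.31, 0.32 and -0.35, and Insig2, at -0.18, 0.44 and 0.49, each had 1 array against the other two. Srebf2 had 0.31, -0.27 and 0.00, Srebf1 had 0.11, -0.06 and -0.17, Scap had -0.02, 0.06 and -0.24, Stard4 had -0.19, 0.10 and -0.03, and Acaca had 0.29, -0.07 and -0.25. These 5 genes lay on both sides of 0, and Mylip, within 0.06 of 0, was the only member below 0 on all 3 arrays, as were 9.92% of all genes.

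The difference between the diet effects, after minus before SDS, was 0.06 in the median of the 29 members, and 0 members passed (percent called over all genes 0%). Leaving out 1 array moved that median between -0.14 and 0.27 and the enzymes' median between -0.14 and 0.36, so neither has a settled sign. The number of enzymes above 0 was just as unsettled. Dropping after-SDS array 4 put all 18 above 0, against 8481 of 17064 genes. Dropping before-SDS array 1 put only 3 of the 18 there. The number was 8 when after-SDS array 1 was dropped and 9 when after-SDS array 3 was dropped. It was 16 or 17 when any of the remaining arrays was dropped. The medians with the sign of array 4 turned were 0.22 for the members and 0.33 for the enzymes. At an unadjusted p under 0.05 there was as labelled 1 member, Fasn, against 0.65% of all genes in the lower direction, and 0 members were higher, against 1.02% of all genes. The difference of Fasn was -0.53 ± 0.14 (SE, 95% interval -0.86 to -0.19, unadjusted p = 0.00714, adjusted p = 1). With the sign of array 4 turned it was -0.37 (unadjusted p = 0.1155). Under that sign, Hmgcs1 (0.39), Sc5d (0.44), Dhcr7 (0.46) and Stard4 (0.59) had an unadjusted p under 0.05 in the higher direction. The share of all genes at that unadjusted threshold was not counted under that sign. These values therefore do not show that the members stood out. No member passed then, against 0.0938% of all genes called higher and 1.43% lower. All 5 genes of the SREBP1 side had a difference below 0 (median -0.21), against 50% of all genes above 0, and 16 of the 18 enzymes had a difference above 0 (median 0.08), the exceptions being Acat2 and Cyp51. With the sign of array 4 turned, the median of the SREBP1 side was -0.06, with all 5 genes still below 0. After Fasn, the members with the smallest p as labelled were Acaca at -0.21 ± 0.13 (SE), Scap at 0.24 ± 0.17 (SE) and Stard4 at 0.35 ± 0.26 (SE), each with an adjusted p of 1. The intervals of the enzymes were wide: that of Lss ran from -0.22 to 0.75 and that of Cyp51 from -0.92 to 0.84. Probes of the same gene also differed in sign. The lowest other probe was below 0 for Hmgcs1 (-0.31), Fdft1 (-0.12), Stard4 (-0.12), Lss (-0.09), Sc5d (-0.04) and Dhcr7 (-0.02). The highest other probe of Cyp51 was above 0 (0.05).

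Set side by side on each array, the median of the 18 enzymes lay above the median of the SREBP1 side on arrays 1 to 4 after SDS as labelled, by 0.54, 0.21, 0.53 and 0.07. On array 4 it would lie below it by the same 0.07 with the sign turned. Before SDS the enzymes lay below the SREBP1 side on array 1, by -0.11, and above it on arrays 2 and 3, by 0.10 and 0.25. The SREBP1 side on its own had medians of 0.35, 0.08, -0.14 and -0.48 after SDS and of 0.30, 0.13 and -0.17 before SDS. Markers of several cell types differed on the same arrays. All 8 measured suprabasal keratinocyte markers were higher in GC-fed skin on after-SDS arrays 1 to 3 (medians 1.22, 0.65 and 0.65) and all 8 were lower on array 4 (median -0.65). All 7 measured basal keratinocyte markers were likewise higher on arrays 1 to 3 (medians 0.45, 0.39 and 0.60) and lower on array 4 (median -0.24). The 12 hair follicle markers had medians of -0.68, 0.14, 1.06 and -0.12 after SDS and of 1.09, -1.99 and -0.30 before SDS, the widest range of these lists. The 9 macrophage markers had medians of -0.59, -0.39, -0.997 and 0.33 after SDS and of -0.17, -0.21 and -0.43 before SDS. The 7 sebaceous gland markers had medians of 0.26, 0.07, 0.46 and -0.17 after SDS and of 0.04, 0.28 and 0.08 before SDS. Adipocytes also use the fatty acid branch, and the 9 adipocyte markers had medians of -0.42, -0.39, -1.05 and -0.18 after SDS and of -0.07, 0.07 and -0.30 before SDS. The 8 skeletal muscle markers had medians of -1.17, -0.40, -1.29 and -0.21 after SDS and of -0.77, -0.12 and 0.38 before SDS. Centred on its mean over all samples, the adipocyte markers' median level ran from -0.37 to -0.15 in GC-fed skin after SDS, from 0.17 to 0.67 in control-fed skin after SDS, from -0.31 to -0.10 in GC-fed skin before SDS and from -0.13 to 0.10 in control-fed skin before SDS. The same range for the suprabasal markers was -0.42 to 0.61, -0.72 to 0.12, 0.07 to 0.30 and -0.04 to 0.26 in these groups. The part of these cell types in the members' ratios was not tested.

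**Figure D2:**
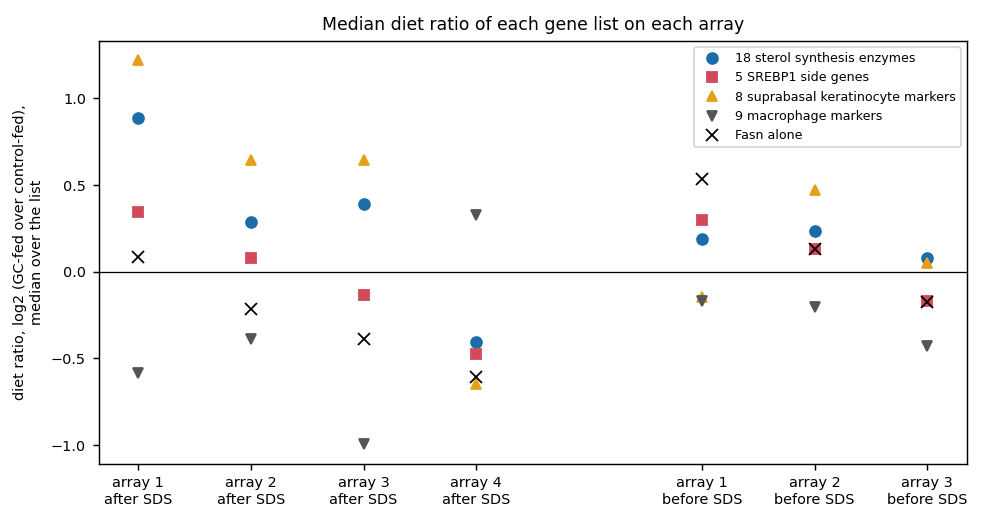
Median diet ratio, log2 of GC-fed over control-fed, of the 18 sterol enzymes, the 5 SREBP1 side genes, 8 suprabasal keratinocyte markers and 9 macrophage markers on each array, with Fasn alone as a cross; the 4 after-SDS arrays stand left of the 3 before-SDS arrays. The enzymes and the suprabasal markers are both above 0 on after-SDS arrays 1 to 3 and below 0 on array 4, where the macrophage markers are above 0.

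The next comparisons set the levels after SDS against those before SDS within each diet. An SDS effect here also holds the slide and the longer time on the diet. In GC-fed skin, 2 members fell after SDS and 0 rose, Acat2 and Acss2, which is 6.9% of the members against 6.02% of all genes called lower and 5.94% called higher, so the members' share lay near the background. The members' median SDS effect was -0.17, 8 of 29 lay above 0 (49.8% of all genes), and 9 were lower at an unadjusted p under 0.05 (14.8% of all genes). Without array 4 the median was -0.04 with 11 of 29 above 0, and with the channels of array 4 exchanged it was -0.06. Another probe was above 0 where the used probe fell for Fdft1 (0.19), Idi1 (0.16), Mvk (0.13) and Fdps (0.08). The reverse held for Mylip (-0.29) and Srebf2 (-0.05). Acat2 had levels of 9.06, 8.82, 8.84 and 8.51 in GC-fed skin after SDS, against 9.13, 9.32 and 9.70 in GC-fed skin before SDS. The groups did not overlap, as was so in this direction, narrowly, for Lss among the other members and for 10.3% of all genes. The fitted effect of Acat2 was -0.59 ± 0.16 (SE, 95% interval -0.94 to -0.24), or 0.665-fold, with an adjusted p of 0.0371. Acss2 had 10.78, 10.07, 10.38 and 10.12 after SDS, against 10.88, 10.82 and 10.70 before SDS. Here after-SDS sample 1 lay among the before-SDS samples and the other 3 lay below them, and the fitted effect was -0.49 ± 0.14 (SE, adjusted p = 0.0376). Both calls depended on single arrays: without array 4, Acat2 was at -0.47 (adjusted p = 0.0853) and Acss2 at -0.43 (adjusted p = 0.0737), 0 members were called lower (6.77% of all genes) and 1, Sc5d, was called higher at 0.39 (adjusted p = 0.0366, 6.72% of all genes called higher). With the channels of array 4 exchanged, Acat2 (-0.52, adjusted p = 0.0366) and Acss2 (-0.42, adjusted p = 0.0428) were called lower, against 8.46% of all genes, and 0 members were called higher, against 8.22%.

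In control-fed skin, 3 members fell after SDS and 0 rose, Lss, Scap and Insig2, which is 10.3% of the members against 8.62% of all genes called lower and 7.5% called higher. The members' median was -0.24, 7 of 29 lay above 0 (49.7% of all genes), and at an unadjusted p under 0.05 there were 9 lower members (17.3% of all genes) and 1 higher member, Fasn (16.6% of all genes). Lss had levels of 9.31, 9.30, 9.31 and 9.48 in control-fed skin after SDS, against 9.99, 10.05 and 9.99 before SDS, and the groups did not overlap. Its fitted effect was -0.65 ± 0.13 (SE, 95% interval -0.94 to -0.36, adjusted p = 0.00959). In GC-fed skin Lss was at 10.07, 9.66, 10.05 and 9.47 after SDS, against 10.17, 10.31 and 10.08 before SDS, with a fitted effect of -0.39 ± 0.13 (SE, adjusted p = 0.0789). Scap, the SREBP escort, had 12.72, 13.05, 12.94 and 12.96 in control-fed skin after SDS, against 13.27, 13.21 and 13.33 before SDS, a fitted effect of -0.34 ± 0.10 (SE, adjusted p = 0.032). Insig2 had 12.25, 12.12, 11.89 and 11.83 after SDS, against 12.44, 12.28 and 12.35 before SDS, a fitted effect of -0.38 ± 0.11 (SE, adjusted p = 0.0379). The after-SDS samples of both genes lay below all before-SDS samples, as did those of 7 members in all and 17.6% of all genes. Without array 4 the members' median in control-fed skin was -0.36, and with its channels exchanged it was -0.33. Another probe was above 0 where the used probe fell for Stard4 (0.44), Fdft1 (0.31), Idi1 (0.16), Hmgcs1 (0.12) and Pmvk (0.05). With the mean of all probes, 10 of 29 members lay above 0. Without array 4, 8 members were called lower in control-fed skin, 7 of them enzymes, against 10.4% of all genes called lower, and with the channels of array 4 exchanged 11 were called lower, against 12.6% of all genes.

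**Figure D3:**
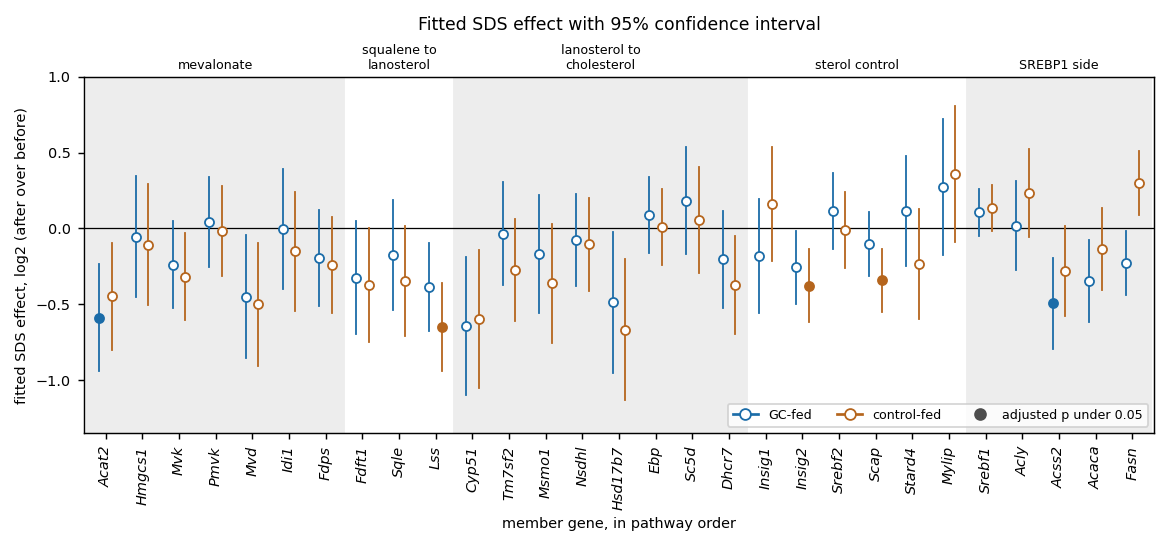
Fitted SDS effect, log2 of after over before SDS, of each member in GC-fed and in control-fed skin, with the 95% confidence interval; filled points have an adjusted p under 0.05. Most points lie below 0 in both diets, most intervals cover 0, and the filled points are Acat2 and Acss2 in GC-fed skin and Lss, Insig2 and Scap in control-fed skin.

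With array 4 as labelled, none of the 29 members (0) was called lower in both diets. With the channels of array 4 exchanged, Acat2 was called lower in GC-fed skin (-0.52, adjusted p = 0.0366) and in control-fed skin (-0.51, adjusted p = 0.0277). The share of all genes called lower in both diets was not counted under either setting. These counts therefore do not set the members apart. Whether an SDS effect differed between the diets is the same contrast as the after minus before difference above, and 0 members passed it. Fasn had 15.51, 15.27, 15.25 and 15.29 in GC-fed skin after SDS, against 15.67, 15.59 and 15.29 before SDS, and its fitted SDS effect there was -0.23 ± 0.10 (SE, adjusted p = 0.147). In control-fed skin it had 15.43, 15.49, 15.64 and 15.90 after SDS, against 15.13, 15.46 and 15.47 before SDS, and its fitted effect was 0.30 ± 0.10 (SE, adjusted p = 0.0546). The groups overlapped in both diets. Srebf1 had 13.81, 13.71, 13.67 and 13.78 in GC-fed skin after SDS, against 13.69, 13.63 and 13.54 before SDS, and 13.78, 13.63, 13.81 and 13.90 in control-fed skin after SDS, against 13.58, 13.69 and 13.71 before SDS. Its fitted SDS effects were 0.11 and 0.14 with SEs of 0.07, the smallest among the members, and neither passed (adjusted p = 0.35 and 0.196). Srebf2 had 12.97, 12.89, 12.82 and 12.41 in GC-fed skin after SDS, against 12.83, 12.51 and 12.52 before SDS, with 3 of its 4 after-SDS samples near the top of the range and the array 4 sample at the bottom. Insig1, the level of which often follows SREBP activity, had fitted effects of -0.18 ± 0.17 and 0.16 ± 0.17 (SE) in GC-fed and control-fed skin, neither of which passed (adjusted p = 0.522 and 0.536).

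With array 4 as labelled, the other named members gave no SDS call that passed in the diet concerned. Acat2 had levels of 8.35, 8.84, 8.63 and 8.69 in control-fed skin after SDS, against 8.98, 9.005 and 9.27 before SDS, and Acss2 had 10.12, 10.10, 10.28 and 10.51 there after SDS, against 10.45, 10.64 and 10.62 before SDS. The Acat2 groups did not overlap, and in Acss2 the array 4 sample lay among the before-SDS samples. Their fitted effects in control-fed skin were -0.45 ± 0.16 and -0.28 ± 0.14 (SE), with adjusted p-values of 0.0772 and 0.171. Scap had 13.24, 12.98, 13.16 and 13.04 in GC-fed skin after SDS, against 13.25, 13.26 and 13.10 before SDS, and Insig2 had 12.40, 12.12, 12.51 and 12.19 after SDS, against 12.27, 12.71 and 12.84 before SDS. Both overlapped, with fitted effects of -0.10 ± 0.10 and -0.26 ± 0.11 (SE, adjusted p = 0.518 and 0.148).

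Srebf2 had 12.42, 12.52, 12.48 and 12.81 in control-fed skin after SDS, against 12.53, 12.77 and 12.52 before SDS, a close overlap. Insig1 had 9.49, 9.21, 9.36 and 8.84 in GC-fed skin after SDS, against 9.14, 9.23 and 9.79 before SDS, and 9.08, 9.05, 9.16 and 9.41 in control-fed skin after SDS, against 8.90, 9.13 and 9.05 before SDS. The array 4 samples of Insig1 were the lowest of the GC-fed and the highest of the control-fed samples after SDS. Stard4 had 11.41, 11.06, 11.18 and 10.78 in GC-fed skin after SDS, against 11.06, 11.04 and 10.80 before SDS, and 10.53, 10.51, 10.78 and 11.16 in control-fed skin after SDS, against 11.25, 10.94 and 10.84 before SDS. Tm7sf2 had 11.73, 11.34, 11.65 and 11.17 in GC-fed skin after SDS, against 11.71, 11.58 and 11.13 before SDS, and 10.86, 10.90, 11.14 and 11.37 in control-fed skin after SDS, against 11.40, 11.25 and 11.47 before SDS. Both genes overlapped in both diets, and their array 4 samples again stood at the ends of the after-SDS ranges.

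Acly had 11.46, 11.07, 11.17 and 11.09 in GC-fed skin after SDS, against 11.09, 11.10 and 11.24 before SDS, and 10.89, 10.86, 11.19 and 11.56 in control-fed skin after SDS, against 10.79, 10.95 and 11.04 before SDS. Acaca had 8.87, 8.52, 8.29 and 8.56 in GC-fed skin after SDS, against 9.003, 8.93 and 8.63 before SDS, and 8.53, 8.26, 8.86 and 9.05 in control-fed skin after SDS, against 8.72, 8.997 and 8.88 before SDS. The groups overlapped in both genes and both diets, and the control-fed sample of array 4 was the highest of its group in each. The fitted SDS effect of Acaca in GC-fed skin was -0.35 ± 0.12 (SE, adjusted p = 0.0877).

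Taken by their group means, the 18 enzymes were lowest in control-fed skin after SDS in 16 cases, the exceptions being Ebp, a sterol isomerase, and Sc5d; this was the lowest group for 30% of all genes. GC-fed skin before SDS held the highest mean for 13 of the 18 enzymes and for 25.7% of all genes. With the channels of array 4 exchanged, control-fed skin after SDS was lowest for 18 of the 18 enzymes (28.6% of all genes) and GC-fed skin before SDS highest for 11 (24% of all genes), and without array 4 these counts were 18 (29.3% of all genes) and 10 (23.3% of all genes). Cyp51 averaged 10.77 ± 0.45 in GC-fed skin after SDS, 10.39 ± 0.41 in control-fed skin after SDS, 11.36 ± 0.08 in GC-fed skin before SDS and 11.04 ± 0.08 in control-fed skin before SDS (SD, n = 4, 4, 3 and 3). Msmo1 averaged 15.27 ± 0.40, 14.77 ± 0.35, 15.38 ± 0.16 and 15.18 ± 0.02 in the same groups. The spread among samples was larger after SDS: the median level of the enzymes, each centred on its mean over all samples, ran from -0.33 to 0.47 in GC-fed skin after SDS, from -0.49 to 0.07 in control-fed skin after SDS, from 0.13 to 0.28 in GC-fed skin before SDS and from 0.04 to 0.14 in control-fed skin before SDS. The array 4 samples were at the ends of these ranges. For 16 of the 18 enzymes the GC-fed sample of array 4 was the lowest of the 4 GC-fed samples after SDS, as for 28.1% of all genes, and for 16 of the 18 the control-fed sample of array 4 was the highest of the 4 control-fed samples, as for 22.6% of all genes. Beside these falls, the 12 hair follicle markers were higher after SDS in both diets (median SDS effect 1.52 in GC-fed and 1.01 in control-fed skin, with 8 and 6 of them called), 4 of 7 basal keratinocyte markers were called lower in control-fed skin and 1 in GC-fed skin, and 3 of 7 sebaceous gland markers were called lower in control-fed skin and 1 in GC-fed skin. The 9 adipocyte markers had medians of -0.05 in GC-fed skin (1 called lower) and 0.37 in control-fed skin (3 called higher). The 8 suprabasal markers had -0.01 (0 called) and -0.37 (1 called lower). The macrophage markers had -0.13 and 0.07, and the muscle markers -0.38 and 0.25, with 0 called. Of all genes, 5.94% were called higher and 6.02% lower in GC-fed skin, and 7.5% and 8.62% in control-fed skin. The part of these cell types in the members' SDS effects was not tested.

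**Figure D4:**
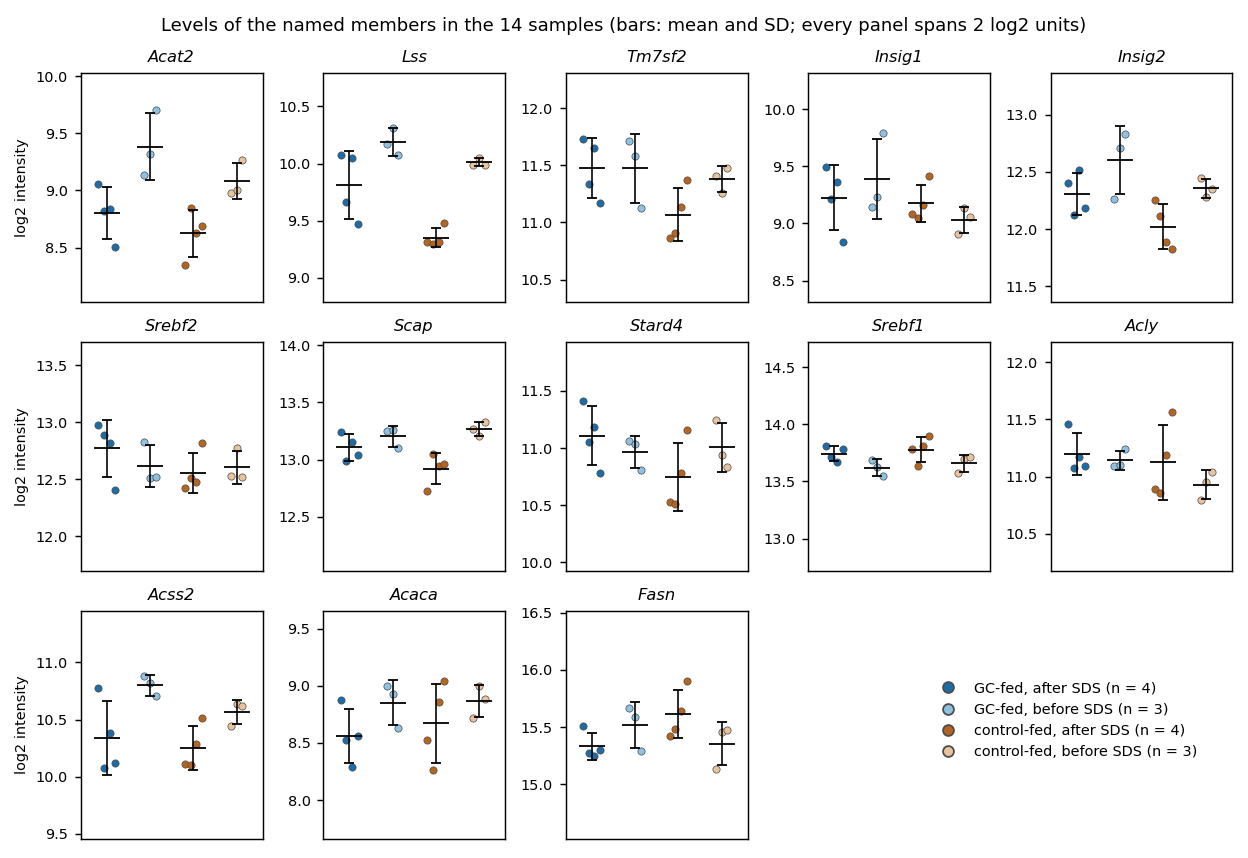
Log2 intensity of 13 members in each sample, with the mean and SD of each group; from left to right in each panel stand GC-fed skin after SDS, GC-fed skin before SDS, control-fed skin after SDS and control-fed skin before SDS, and every panel spans 2 log2 units. Lss after SDS lies below all of its before-SDS samples in control-fed skin and only just so in GC-fed skin (10.072 against 10.079), while Srebf1 hardly varies.

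Other genes of the pathways were read from lists of 14 sterol genes and 13 fatty acid genes. For the diet, 0 genes of either list passed in either SDS state with all arrays. Without array 4, 3 of the 14 sterol genes (1 higher, 2 lower) and 3 of the 13 fatty acid genes (2 higher, 1 lower) were called after SDS, against 2.91% of all genes higher and 6.01% lower. With its sign turned, 5 of the 14 (1 higher, 4 lower) and 3 of the 13 (all higher) were called, against 4.88% of all genes higher and 7.97% lower. After SDS, Nr1h3, the sterol-sensing nuclear receptor LXR alpha, was at -0.45 ± 0.17 (SE, adjusted p = 0.729). In the fatty acid list the 2 genes with the smallest p were Thrsp, a lipogenesis factor, at -0.76 ± 0.15 (SE, unadjusted p = 0.0017, adjusted p = 0.729), and Acacb, another acetyl-CoA carboxylase, at 0.35 ± 0.17 (SE, adjusted p = 0.729). Before SDS, Soat1, which esterifies cholesterol, was at 0.33 ± 0.21, Elovl5, a fatty acid elongase, at 0.23 ± 0.14, and Mid1ip1, an activator of acetyl-CoA carboxylase, at 0.32 ± 0.20 (SE, adjusted p = 1 for all 3). For the difference after minus before SDS, 0 genes passed, and Thrsp was at -0.83 ± 0.24, Mlxipl, a lipogenic transcription factor, at -0.13 ± 0.17, Nr1h3 at -0.38 ± 0.27 and Soat1 at -0.33 ± 0.27 (SE, adjusted p = 1 for all 4).

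After SDS in GC-fed skin, 0 of the 14 sterol genes passed and 2 of the 13 fatty acid genes did, against 12% of all genes. Of these 2, Elovl5 fell (-0.54 ± 0.12, adjusted p = 0.0178) and Fads2, a fatty acid desaturase, rose (0.67 ± 0.17, adjusted p = 0.0242). The sterol genes with the smallest p there were Ggps1, which makes geranylgeranyl diphosphate, at 0.28 ± 0.09 (SE, adjusted p = 0.0541), and Lbr, a lamin receptor with sterol reductase activity, at 0.37 ± 0.13 (SE, adjusted p = 0.0908). In control-fed skin, Soat1 (0.64 ± 0.16, adjusted p = 0.0185) and Ggps1 (0.27 ± 0.09, adjusted p = 0.0486) rose, and Elovl5 (-0.43 ± 0.12, adjusted p = 0.0311) and Me1, the malic enzyme that supplies NADPH (-0.51 ± 0.15, adjusted p = 0.0366), fell. Of all genes, 16.1% were called in control-fed skin, so these few calls do not set either list apart. The median of the sterol list was -0.05 in GC-fed and 0.13 in control-fed skin, and that of the fatty acid list was -0.30 and -0.15, against 0.00 over all genes in both.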

How the data were processed

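RNA of dorsal skin (500 ng of total RNA a sample, per the labels' protocols) was compared on 7 two-colour Agilent arrays, with the dyes of the diets swapped between arrays. The authors deposited each array's spot intensity, read with Feature Extraction 9.1.3.1 per the file headers, and a table of their processed log2 values with a floor of 200 on the linear scale, used only as a check: over 9785 shared genes its diet ratios correlated with those here at r = 0.89 to 0.967.

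From the mean and local background intensities, normexp (offset 50) and loess within each array (limma 3.58.1 in R 4.3.3) gave log2 ratios and, after Aquantile, log2 levels. The normexp parameters were taken from spots with a uniform local background, because a few other spots distorted the estimate on 3 arrays. This step was chosen after seeing the data. A probe was kept if 3 or more of the 14 channels stood well above background, and the brightest probe stood for its gene. Diet effects came from 1 limma fit of ratios with a dye term, SDS effects from a limma separate-channel fit (intraspot correlation 0.0558), and p-values were adjusted by Benjamini-Hochberg over 17064 genes, with a threshold of 0.05. The fits were tested on simulated data. The number of arrays limits the precision, and 0 spots were saturated. Samples were grouped by diet and SDS as labelled.

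Members and lists were chosen with earlier results of these data known. Values in every sample are given for members that passed in any comparison, for the 4 members with the smallest p in each diet comparison, and for Srebf1, Srebf2, Fasn and Insig1. The other pathway genes named are those that passed or the 2 of a list with the smallest p, except 1 gene that is not reported here. Symbols were updated from a RefSeq table. Alternatives were other background, scaling, filter, probe, dye and block choices, leaving out each array, and, added after seeing the data, normexp on all spots and array 4 with its sign turned. Promoters of Fdps, Fdft1, Sqle and Stard4 were not analysed here.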

Additional observations from a re-analysis of the deposited data

Results flagged for a closer look

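Of 87 sets of 4 values tested (29 diet ratios and 58 sets of levels after SDS), 2 had a sample far from the others by Dixon's criterion at the 95% level, which chance reaches in about 1 in 20 sets. Fdft1, squalene synthase, was at 12.18 in the GC-fed sample of after-SDS array 1, while the other GC-fed samples after SDS lay at 11.36, 11.37 and 11.24. Lss, lanosterol synthase, was at 9.48 in the control-fed sample of after-SDS array 4, while the other control-fed samples after SDS lay at 9.31, 9.30 and 9.31. The Lss sample still lay below all control-fed samples before SDS.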

How the results depend on the processing

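The SDS calls on single members depended on settings and arrays, and so did the diet calls after SDS. Cause was not tested for any change given here. After SDS, 2193 genes and 11 members were called for the diet with the sign of array 4 turned. Leaving out 1 array gave 0 to 1523 genes and 0 to 8 members, both highest without array 4. For after minus before SDS, turning that sign gave 260 genes, leaving out 1 array 0 to 168, and Stard4 ran from -0.02 (without before-SDS array 1) to 0.63. Before SDS, leaving out 1 array gave medians of 0.14 to 0.39 for the members and 0.14 to 0.44 for the enzymes, highest without array 1.

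In GC-fed skin the SDS effect called 1319 genes with Agilent's processed signals. It called 6 members with median scaling, 1 with the processed signals, 1 with no dye term, 0 with no filter on dim probes and 7 with normexp on all spots. Leaving out 1 array gave 118 to 2303 genes and 0 to 6 members: 0 without before-SDS array 2 or 3 or after-SDS array 2 or 3, 1 without after-SDS array 4 and 6 without after-SDS array 1. In control-fed skin 4364 genes and 11 members were called with array 4 exchanged, 8 members with median scaling and 5 with normexp on all spots. Leaving out 1 array gave 59 to 3687 genes and 0 to 8 members: 0 without before-SDS array 1, 1 without before-SDS array 2 or 3 or after-SDS array 3, and 8 without after-SDS array 4. Lss kept its call in control-fed skin except without before-SDS array 1 (adjusted p = 0.107). Acat2 and Acss2 lost theirs under 8 and 9 of 16 alternatives, Scap and Insig2 under 8 each. Where a member count is given here without the share of all genes under the same setting, it was not compared with that background. Such a count shows only that the calls moved with the setting, and not that the members stood out.

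Whether the replicate numbers pair the samples is not settled, because only 3 same-number pairs could be compared. Their correlations were -0.03 to 0.22 for diet ratios (1 of 3 over 0.1). For levels they were -0.17 to 0.08 in GC-fed and -0.09 to 0.29 in control-fed skin. With the replicate number as a block, the difference after minus before SDS called 99 genes, with medians of 0.46 for the members and 0.55 for the enzymes, and the SDS effect called 891 genes and 0 members in GC-fed skin and 1527 genes and 1 member in control-fed skin.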
